A study of Mus musculus with 2 samples.

Results

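The genes described here build the sarcomere, the contractile unit of striated muscle: thin filament, myosin light chain, thick filament, M-band and Z-disc genes. They were taken from a list of 38 symbols by matching each symbol to the platform's probe annotation. Of these, 36 were found with 42 probes, and Tcap and Mybph were not matched and are not analysed here. The 36 are among 19321 genes named on the array, and all 36 lay above background on both arrays. Comparisons with other genes use the 18498 that passed the background limit on either array.

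Both samples were gastrocnemius, a calf muscle rich in fast fibres, of female mice 10 weeks old. The sample called depleted carried Pdgfra-CreER:R26-DTA and the sample called control was Wild type:R26-DTA, so the toxin allele was in both and the tamoxifen-inducible Cre in the depleted sample alone. Cre is driven by the Pdgfra gene and, with tamoxifen, turns on the toxin allele in cells that have Pdgfra switched on. The toxin removes these cells, which in muscle are mesenchymal progenitors of the interstitium. Both received tamoxifen for 5 days from 9 weeks of age, and muscle was frozen 2 days after the last injection. The study asked which genes differ after depletion. Each group held 1 array, so there is no test, no SD and no p-value for any value below, and array, animal and genotype cannot be told apart. In bulk muscle, more cells of a type and more RNA per cell cannot be told apart either.

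In a sarcomere, myosin thick filaments pull on thin filaments of actin. Tropomyosin lies along actin and, with troponin T, I and C, makes contraction depend on calcium. The Z-disc anchors thin filaments, the M-band links thick filaments, and titin spans from one to the other. Many of these proteins come in fast and slow isoforms made from separate genes, and a fibre's mix of them goes with its contraction speed.

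Slow isoform genes of the troponin complex, tropomyosin, myozenin and myosin binding protein C were higher on the depleted array, by 1.29-fold to 1.71-fold, while their fast partners differed by at most 1.12-fold in either direction. In the authors' processed values 9 of the 10 fast members were lower, as were 46 of the 50 brightest genes. The slow light chains Myl2 and Myl3 were not higher (log2 ratios -0.08 and -0.16, depleted over control), although scaling to the median put both at 0.16, below the 0.29 of the 1000 brightest genes in that setting. The direction of several slow genes also turned when the scanner's local background column was subtracted: Tnni1 was then at -1.52, Tpm3 at -1.19 and Myoz2 at -7.60. That column was 54.8% of the spot for the median member on the control and 62.3% on the depleted array, and it exceeded the spot for Tnnt1 on the control and Myoz2 on the depleted array. Ratios are given after normexp background correction and quantile normalization unless stated, and "deposited" marks the authors' processed intensities. Of the 36 members, 4 (11.1%) were at least 1.5-fold higher: Myoz2, Tnnt1, Tnnc1 and Flnc. The share was 1.96% among all genes compared and 9.00% among the 1000 brightest, to which 27 members belong, so as a whole the members were close to other bright genes. These counts read each gene from its brightest probe. By it, only Ldb3 (2.78%) was at least 1.5-fold lower, against 1.52% of all genes and 6.80% of the 1000 brightest. No member was 2-fold higher or lower by it, against 0.492% and 0.427% of all genes. Of the 1000 brightest, 26 were at least 2-fold higher and 22 lower. The dimmer Ttn probes, not counted here, were at -1.37 and -0.71. The median log2 ratio of the members was 0.00, equal to that of all genes at 2 decimals.

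**Figure D1:**
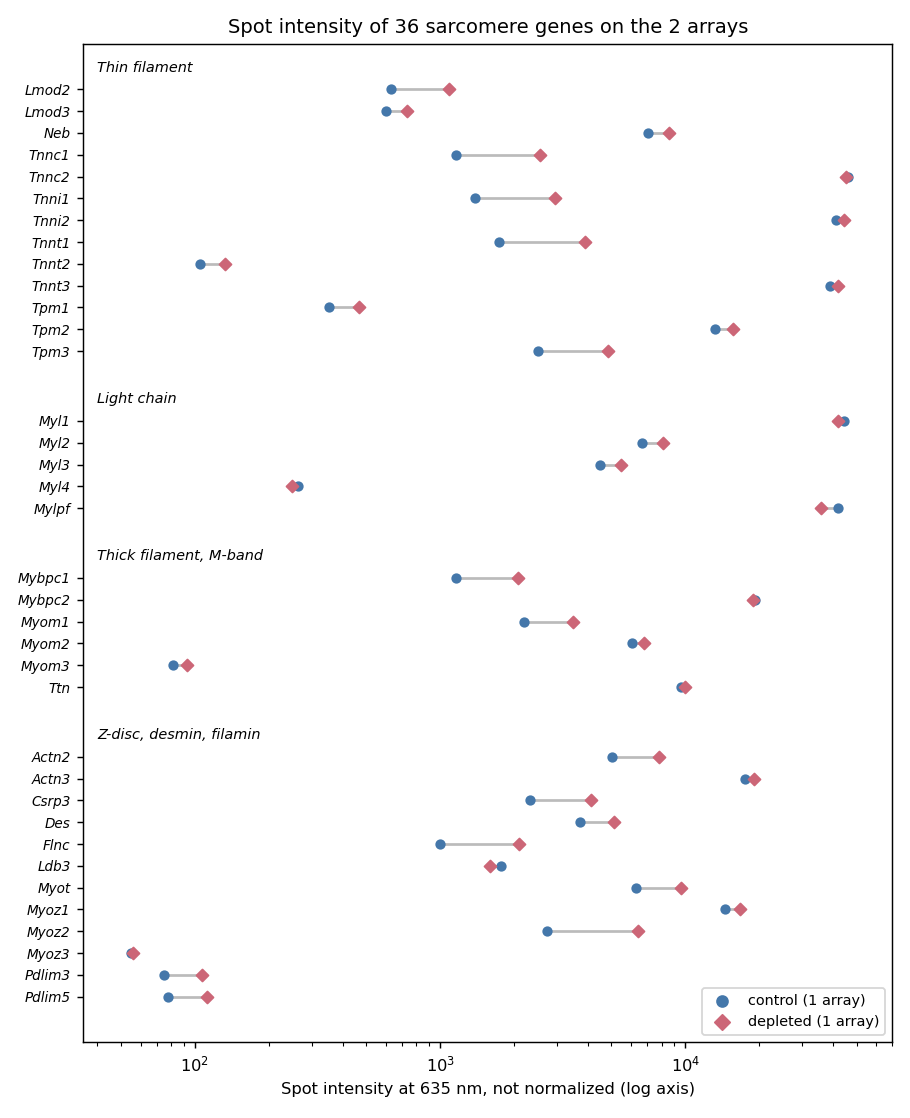
Spot intensity without normalization (log axis) for the brightest probe of each of the 36 members, grouped by place in the sarcomere, with a circle for the control and a diamond for the depleted array. The depleted array was brighter in general (median probe 59.8 against 53.3), and the widest gaps belong to Tnnt1, Tnni1, Tnnc1, Myoz2, Flnc and Tpm3.

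Beside the lack of replicates, the arrays themselves give a measure of technical spread. The 24 spots of the positive control probes on each array had log2 ratios with an SD of 0.14 and 0.15. Their median log2 ratios were 1.09 and 0.78 before normalization, and 0.68 and 0.34 on the deposited scale. The SD does not cover such a shift, which all spots of a probe share. Probes of one gene differed with a pooled SD of 0.18 over 1102 genes, and of 0.30 over the 12 genes whose probes are as bright as the 1000 brightest genes, where most members lie. Both sets of genes include the members Ttn and Neb. Among the 12, bright probes of Ttn were at -0.19 and -1.37 and those of Neb at -0.05 and -0.53. The 0.30 is thus not independent of the members. These spreads cover spot and probe, not animals.

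Troponin T binds the complex to tropomyosin. The spot of its slow gene Tnnt1 read 1734 on the control and 3915 on the depleted array, and its deposited values were 2160.3 and 3639.3. The depleted array was higher in both forms, with a log2 ratio of 0.71 (deposited 0.75). The fast gene Tnnt3 read 38948 and 42021, or 49517.1 and 39403.7 in deposited values. It was thus slightly higher after quantile normalization (0.04) and lower in deposited values (-0.33). Tnnt2, the cardiac and embryonic gene, was dim at 105.1 and 133.0 with a ratio of 0.01.

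Troponin I holds contraction off until calcium arrives. The slow gene Tnni1 read 1388 on the control and 2944 on the depleted array, and deposited values were 1719.6 and 2728.7. Its log2 ratio of 0.58 is a 1.49-fold difference, just short of 1.5-fold, and the deposited values gave 1.59-fold. The fast gene Tnni2 read 41146 and 44326, or 52314.1 and 41567.0 deposited, with ratios of 0.10 and -0.33. The slow gene was again the one that differed upward in both forms.

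Troponin C is the calcium sensor. Tnnc1, the gene of slow and cardiac muscle, read 1157 and 2547, with deposited values of 1425.8 and 2356.1 and a log2 ratio of 0.65 (deposited 0.72). Tnnc2, its fast counterpart, read 46151 and 45402, with a ratio of -0.03. In deposited values Tnnc2 went from 58683.2 to 42576.9, a ratio of -0.46. All 3 slow troponin genes were therefore higher by 1.49-fold to 1.63-fold and all 3 fast ones within 1.07-fold, or 1.26-fold to 1.38-fold lower in deposited values.

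To show the regulatory DNA next to the slow genes that differed by at least 1.5-fold, the 250 bases before the start of Tnnt1, Tnnc1 and Myoz2 are given with those of the fast gene Tnnc2, from RefSeq on GRCm38.p6, in the direction of the gene. Capitals mark matches to the MEF2 consensus, the CArG box, the MCAT element (CATTCC) and the TATA box (TATAAA), searched on both strands.
Tnnt1, chr7:4515976-4516225, minus strand: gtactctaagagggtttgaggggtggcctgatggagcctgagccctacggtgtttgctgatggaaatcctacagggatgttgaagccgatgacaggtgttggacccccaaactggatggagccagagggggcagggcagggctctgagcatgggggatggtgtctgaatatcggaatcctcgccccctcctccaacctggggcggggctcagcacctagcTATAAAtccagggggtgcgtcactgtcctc
Tnnc1, chr14:31208062-31208311, plus strand: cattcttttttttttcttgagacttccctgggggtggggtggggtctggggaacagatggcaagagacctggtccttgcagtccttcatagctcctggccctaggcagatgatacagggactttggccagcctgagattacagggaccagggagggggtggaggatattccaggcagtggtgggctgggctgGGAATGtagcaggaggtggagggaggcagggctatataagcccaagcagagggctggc
Myoz2, chr3:123034988-123035237, minus strand: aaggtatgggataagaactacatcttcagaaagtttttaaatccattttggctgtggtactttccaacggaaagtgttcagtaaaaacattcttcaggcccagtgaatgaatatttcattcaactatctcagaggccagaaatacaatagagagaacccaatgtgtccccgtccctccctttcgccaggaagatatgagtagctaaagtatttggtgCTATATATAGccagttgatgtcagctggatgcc
Tnnc2, chr2:164779735-164779984, minus strand: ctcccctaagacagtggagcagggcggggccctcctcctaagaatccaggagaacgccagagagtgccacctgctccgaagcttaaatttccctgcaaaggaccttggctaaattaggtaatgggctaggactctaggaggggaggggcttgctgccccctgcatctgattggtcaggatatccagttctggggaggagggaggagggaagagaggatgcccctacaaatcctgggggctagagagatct

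The marked run of Tnnt1 is a TATA box that begins 30 bases before the start, that of Tnnc1 is an MCAT element on the opposite strand 58 bases before it, and that of Myoz2 is a MEF2 match 33 bases before it. Of these 4 motifs none matched in the Tnnc2 stretch. The E-box (CANNTG), to which myogenic factors bind, is not capitalized, and the windows of Tnnt1, Tnnc1, Myoz2 and Tnnc2 each held 2. Windows of 300 bases (250 before and 50 after the start) were given for 28 of the 38 listed genes, Mybph included. A MEF2 match was found for 3 of them, in 8.33% of their 36 windows against 3.19% of all 32851 windows. The MCAT element was in 30.6% of member windows and 14.7% of all, the CArG box in 11.1% and 1.63%, and the TATA box in 13.9% and 13.6%. The E-box was in 83.3% and 72.3%. By gene, the MCAT element was in 3 of the 5 fast members with windows and in 2 of the 10 slow ones. The TATA box was in 1 of 5 and 2 of 10, the MEF2 match in 0 of 5 and 2 of 10. The Tnnc2 stretch therefore does not stand for the fast members as a group. A match is a run of letters and not a measured site.

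Tropomyosin covers the myosin sites on actin. Tpm3, whose muscle product is the slow alpha form, was higher on all 3 of its probes, with log2 ratios of 0.47, 0.48 and 0.46. The brightest, M400001043, read 2503 on the control and 4818 on the depleted array (deposited 3139.0 and 4486.8). Its 3 probes agreed more closely than those of any other member with several. The fast alpha gene Tpm1 read 352.2 and 466.4 with deposited values of 402.1 and 403.1, so it hardly differed (-0.03). Tpm2, the beta form, read 13243 and 15585 and had the same rank on both arrays, which gives a ratio of 0.00 after quantile normalization and -0.20 in deposited values. Which splice forms these probes read was not analysed here.

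The other thin filament members bear on filament length. Neb encodes nebulin, which runs along the thin filament, and the leiomodins Lmod2 and Lmod3 promote actin assembly at its pointed end. Lmod2 read 633.1 and 1088 (deposited 759.5 and 986.7), a ratio of 0.32, and Lmod3 read 599.7 and 729.9 (716.9 and 650.3), a ratio of -0.15 that became 0.15 with median scaling. Neb gave different answers by probe. M400000973, the brightest, was at -0.05, M300005399 at -0.53 and M400019078 at 0.17, and deposited values gave -0.15, -0.51 and 0.20.

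Light chains wrap the neck of the myosin head, with the essential chain beside the regulatory one. All 5 of these members had log2 ratios below 0, from -0.44 to -0.08, also in deposited values, but with median scaling Myl2 and Myl3 were above 0. The fast essential gene Myl1 read 44559 on the control and 41805 on the depleted array, or 56657.3 and 39200.9 deposited, with ratios of -0.14 and -0.53. The fast regulatory gene Mylpf read 42154 and 35617, or 53596.9 and 33393.3, with ratios of -0.30 and -0.68. By the brightest probes, Mylpf was the only member at least 1.5-fold lower in deposited values.

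The slow light chains, which slow fibres share with the heart ventricle, did not go with the slow troponins. Myl2 read 6664 and 8124, with deposited values of 8434.4 and 7590.2 and a ratio of -0.08. Myl3 read 4487 and 5465, with deposited values of 5664.3 and 5094.3 and a ratio of -0.16. Myl4, the atrial and embryonic chain, read 262.9 and 248.6 and had a ratio of -0.44, from 288.4 to 198.6 in deposited values. The embryonic members were thus not higher: Tnnt2 was level and Myl4 lower.

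Myosin binding protein C sits on the thick filament and tunes cross-bridges. Its slow gene Mybpc1 read 1164 on the control and 2071 on the depleted array (deposited 1435.7 and 1909.5), a ratio of 0.36. Its fast gene Mybpc2 read 19201 and 18847 (24388.5 and 17653.8), a ratio of -0.17. The slow gene had the higher ratio of the pair here as well.

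In the M-band, myomesins cross-link the thick filaments. Myom1, found in all fibres, read 2190 and 3474 with a ratio of 0.20. Myom2, found in fast fibres, read 6081 and 6818 with a ratio of -0.20. Myom3 was dim, at 81.3 and 92.6, with a ratio of -0.08. These differences were close to the spread between probes of one gene.

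Titin, the spring that spans from Z-disc to M-band, differed by probe more than any other member. The brightest Ttn probe, M200014444, read 9619 and 9932 (deposited 12194.7 and 9287.0), a ratio of -0.19. M300013771 read 1826 and 975.6 (2277.2 and 880.9), a ratio of -1.37, or 2.59-fold lower. M400003877 read 322.5 and 253.7 (364.2 and 203.4), a ratio of -0.71. All 3 were below 0, and their place along the long, alternatively spliced transcript was not analysed here.

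**Figure D2:**
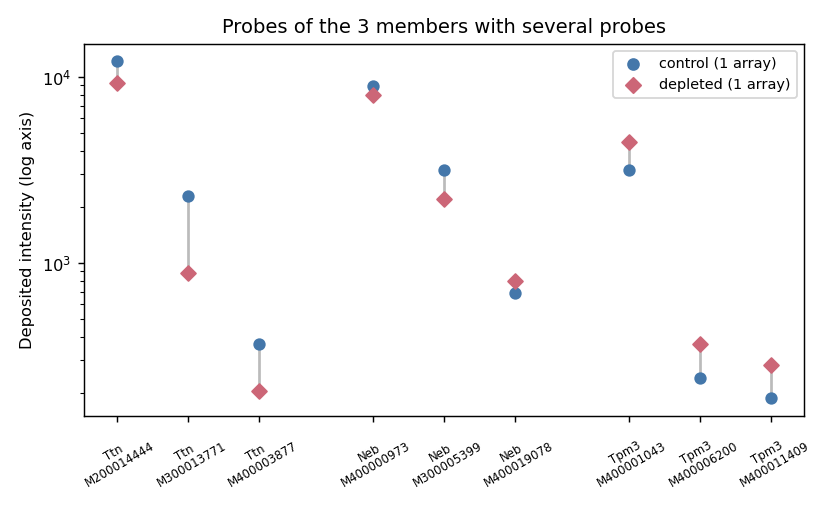
Deposited intensity (log axis) of each probe of Ttn, Neb and Tpm3 on the control (circle) and depleted (diamond) array. The 3 Tpm3 probes moved together, the 3 Ttn probes were all lower by different amounts (deposited log2 ratios -0.39, -1.37 and -0.84), and the Neb probes lay on either side of 0.

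By the brightest probes, Z-disc genes held the highest member, and after quantile normalization the lowest as well. Myozenins bind alpha-actinin and calcineurin at the Z-disc. Myoz2, the slow and cardiac gene, read 2739 on the control and 6407 on the depleted array, with deposited values of 3439.3 and 5978.5. Its log2 ratio of 0.78 (1.71-fold, deposited 1.74-fold) was the highest of the 36 members. Myoz1, the fast gene, read 14549 and 16697 (18468.7 and 15636.4), a ratio of -0.04. Myoz3 was dim at 54.8 and 56.2 with a ratio of -0.10 (deposited -0.38).

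Alpha-actinin cross-links thin filaments at the Z-disc. Actn2, present in all fibres, read 5023 and 7825 (deposited 6346.3 and 7309.1), a ratio of 0.28. Actn3, confined to fast fibres in textbook accounts, read 17518 and 19065 (22245.9 and 17858.4) and had the same rank on both arrays, so its ratio was 0.00, or -0.32 deposited. Csrp3, a LIM protein typical of slow fibres, read 2332 and 4144 (2921.0 and 3854.6), a ratio of 0.36. Myot, which binds actinin and filamin, read 6302 and 9623 (7973.3 and 8996.5), a ratio of 0.27.

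Filamin C, the muscle filamin, stabilizes the Z-disc and its link to the membrane. Flnc read 996 on the control and 2106 on the depleted array (deposited 1221.2 and 1941.5), a ratio of 0.62, or 1.54-fold. Smooth muscle also has filamins and tropomyosins. Of 8 smooth muscle and mural markers 2 were at least 1.5-fold higher, Tagln (0.68) and Acta2 (0.61), against 1.96% of all genes. Smtn (-0.69) was at least 1.5-fold lower, against 1.52% of all genes, and the list's ratios ran from -0.69 to 0.68. In deposited values 4 of the 8 were at least 1.5-fold higher and 2 lower, against 9.34% and 7.21% of all genes. The 4 were Tagln, Acta2, Cnn1 and Myh11. After quantile normalization Cnn1 and Myh11 were at 0.52 and 0.39. The part of these markers in the Flnc value was not tested.

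PDZ-LIM proteins dock on alpha-actinin. Ldb3, also known as ZASP or Cypher, read 1764 and 1601 (deposited 2198.7 and 1468.3), a ratio of -0.60. That was the lowest of the members' brightest probes after quantile normalization. Mylpf was lower than Ldb3 in deposited values (-0.68 against -0.58), with cyclic loess (-0.81 against -0.60) and with median scaling (-0.37 against -0.26). The Ldb3 difference was 1.52-fold, and in deposited values (-0.58) it fell just short of 1.5-fold. Pdlim3 and Pdlim5 were dim, at 74.6 and 77.8 on the control and 106.9 and 111.7 on the depleted array. Both had a ratio of 0.20, but deposited values gave 0.43 and 0.41. Des, the intermediate filament that ties Z-discs together, read 3711 and 5140, with a ratio of 0.00 and deposited values of 4676.4 and 4789.7.

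**Figure D3:**
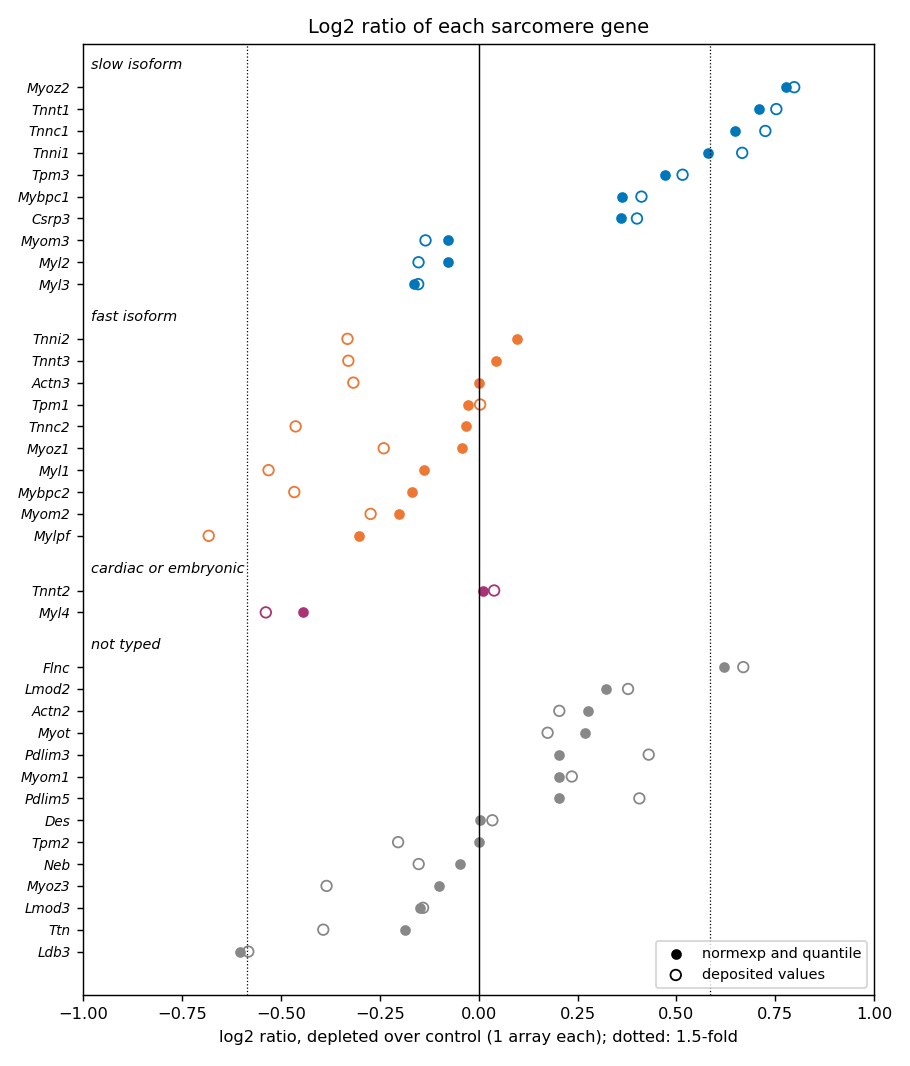
Log2 ratio, depleted over control, of each of the 36 members after normexp and quantile normalization (filled) and in deposited values (open), with dotted lines at 1.5-fold. The upper 7 slow genes lie right of 0 in both forms, and 9 of 10 fast genes lie left of 0 in deposited values, while after quantile normalization the fast genes run from -0.30 (Mylpf) to 0.10 (Tnni2).

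Set side by side, 7 of the 10 slow members were higher on the depleted array and 3 were lower, with a median of 0.42 (from -0.16 to 0.78). Of the slow members 3 of 10 were at least 1.5-fold higher, beside the 9.00% of the 1000 brightest genes given above. The 10 fast members had a median of -0.04 (from -0.30 to 0.10), and 0 of them differed 1.5-fold. However, 8 of them are among the 50 brightest genes, and quantile normalization sets values by rank. Genes that keep their rank thus get a ratio near 0 by construction. The 41 of those 50 that are no members also had a median of -0.04, with 1 at least 1.5-fold higher and 1 lower. Among all genes compared, 8765 of 18498 were higher, and among the 1000 brightest 474 were.

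The difference between the medians of the slow and the fast members was 0.45. Within the 8 fixed pairs, the slow ratio was above the fast one in 7. The gap was widest for myozenin (0.82), troponin C (0.68) and troponin T (0.66), followed by myosin binding protein C (0.53), tropomyosin (0.50), troponin I (0.48) and the regulatory light chain (0.22). Only the essential light chain pair, Myl1 and Myl3, went the other way, by -0.02, which is far below the spread between probes. Because these are ratios of ratios, they compare no level of one probe with that of another.

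**Figure D4:**
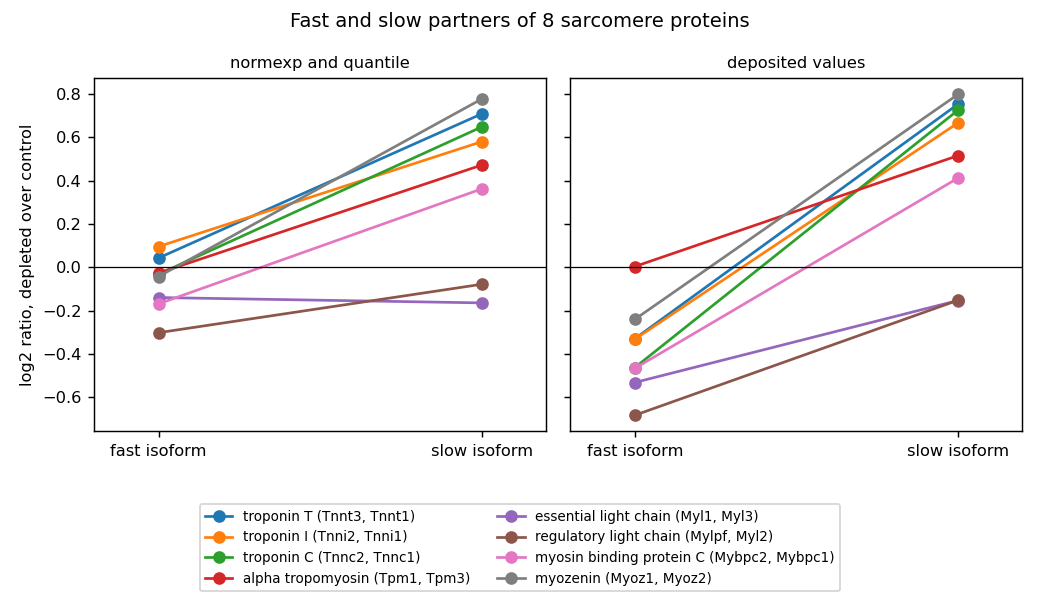
Log2 ratio, depleted over control, of the fast (left) and slow (right) gene of 8 sarcomere proteins, after quantile normalization and in deposited values, 1 line per pair. In these 2 forms both light chain pairs end below 0 at the slow gene, and the other 6 end between 0.36 and 0.78 after quantile normalization.

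Deposited values widened the contrast to 0.79, because the fast genes lay lower. In them 5 of 36 members (13.9%) were at least 1.5-fold higher, the same 4 and Tnni1, against 9.34% of all genes and 10.0% of the 1000 brightest. By the brightest probes Mylpf alone (2.78%) was at least 1.5-fold lower, against 7.21% and 6.90%. The slow median was 0.46 and all 8 pairs had the slow ratio above the fast one. The fast median was -0.33, with 9 of 10 lower. Yet 8 of the fast members are among the 50 brightest genes, and the 41 of those 50 that are no members had a deposited median of -0.28. The fast median was thus close to that of other genes of their brightness. No slow member is among the 50 brightest, while 9 are among the 1000 brightest, whose deposited median was 0.00.

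**Figure D5:**
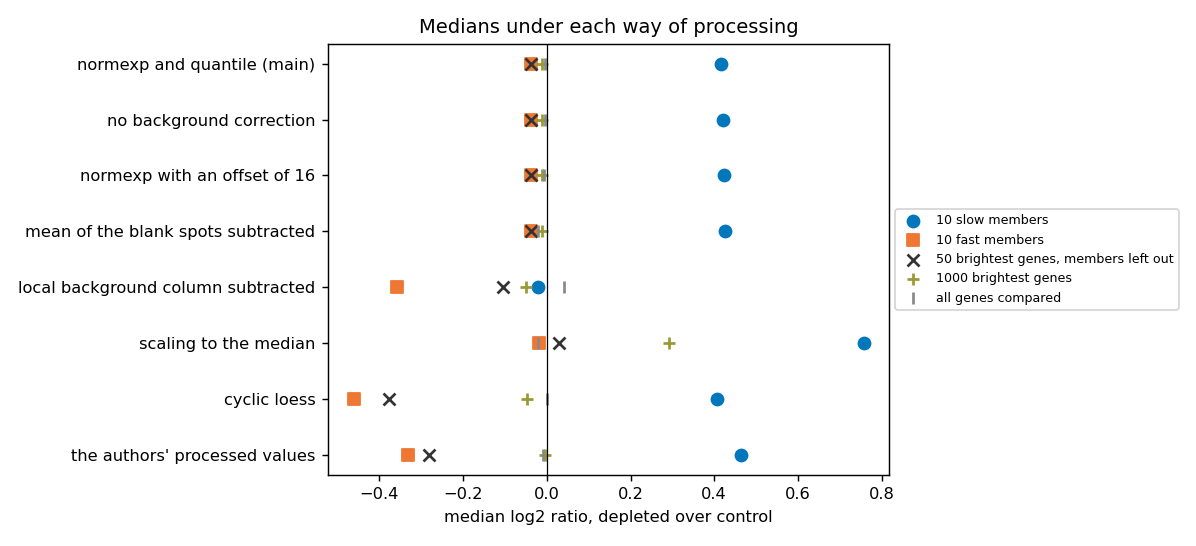
Median log2 ratio, depleted over control, of the 10 slow members, the 10 fast members, the 50 brightest genes without members, the 1000 brightest genes and all genes compared, under each way of processing. Fast members stay near the 50 brightest genes except with the local background column subtracted, and slow members lie at 0.41 to 0.76 except in that setting, where they are at -0.021.

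Other genes that go with fibre type did not all follow the slow sarcomere members. Of 9 measured slow fibre genes outside the sarcomere list 4 were higher, with a median of -0.03. Ankrd2, a stretch-responsive protein of slow fibres, was at 1.21 (spot 1938 and 6195), while Ppargc1a, the coactivator of oxidative genes, was at -0.96 and Myh7, the slow myosin heavy chain, at -0.51 (433.6 and 406.1). So slow troponins were higher while the heavy chain and light chains of slow myosin were not. Of 12 measured fast fibre genes 10 were lower, with a median of -0.30, and 4 were at least 2-fold lower. Casq1, Pgam2 and Pvalb had ratios of -2.03, -1.63 and -1.25. The fast heavy chains Myh1, Myh2 and Myh4 were at -0.43, -0.05 and -0.16, and the skeletal actin Acta1 at -0.04.

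Among 26 further sarcomere genes measured, 8 were higher and 17 lower, with a median of -0.08. Actc1, the cardiac actin also made in young fibres, was at -3.96. Xirp1 and Nrap, which bind actin where filaments are built or repaired, were at 1.11 and 0.93. Xirp1 read 95.5 and 283.2, and Nrap 503.5 and 1322. These 3 differed more than any of the 36 members' brightest probes.

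The tissue label was checked against markers. All 8 skeletal muscle markers were measured well above background, from 3219 to 51523 on the control array. Of the 8 cardiac markers 7 were dim on the control array, where the background limit was 37.4: Mybpc3 read 38.0, Ryr2 38.5, Nppa 41.5, Myh6 42.3, Nppb 42.3, Tnni3 51.5 and Pln 59.5. The other, Nkx2-5, read 528.5 on the control and 313.4 on the depleted array. Markers of fibre regeneration had ratios from -0.30 (Myh8) to 0.20 (Myog and Myh3), or from -0.40 to 0.46 in deposited values. In both forms 0 of 6 differed 1.5-fold. Mesenchymal progenitor markers were lower in 9 of 9, led by Lum (-1.84), Col1a2 (-1.42) and Dpt (-1.23), and Pdgfra was at -0.94. Macrophage markers ran from 0.00 to 1.22 (Lyz2), and 5 of 8 were at least 1.5-fold higher, against 1.96% of all genes. Erythroid markers were lower in 5 of 5, led by Hbb-bt (-3.30). The part of these shifts in the sarcomere values was not tested.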

How the data were processed

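Spot intensity values were deposited per array: the median pixel in the red channel from Cy5-labelled amplified RNA, joined from 3 scan gains, per the file headers. The authors also deposited processed intensities, which on each array are a straight line of the spot values with slopes of 1.27 (control) and 0.939 (depleted). Background correction was normexp with an offset of 50, then log2 and quantile normalization over 23473 probes (limma 3.58.1, R 4.3.3). Background was the mean of 2736 blank spots plus 2 SD, 37.4 on the control and 38.5 on the depleted array. A gene was read from its brightest probe. Tables and plots used Python 3.11.15, pandas 2.3.3 and matplotlib 3.10.9, and the steps were tested on simulated data. Symbols came from the platform annotation, and all 42 member probes matched RefSeq by Entrez gene with 0 symbols changed. The members, gene lists and fast and slow classes were chosen with earlier results of these data known. Every member was to be named, and of each other list up to 3 genes by size of ratio. The myosin heavy chains and actins were named by that rule apart from the 3, while Pdgfra, Cnn1, Myh11 and the other cardiac markers were named after their values were seen. Of the fixed lists, members also serve in fast, slow and role groups. Precision is limited by having 1 array a group. Tried instead, 1 at a time, were 4 other background corrections, scaling to the median, cyclic loess, the deposited processed intensities, stricter and looser filters on dim probes, the mean or dimmest probe of a gene, and the 8 pairs alone.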

Additional observations from a re-analysis of the deposited data

How the results depend on the processing

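No paired analysis was possible because there was a single array on either side. A value was said to hold where it moved by less than the SD between probes of one gene, 0.18. Of the values of single members under the alternatives, 315 held, 80 moved by more and 1 reversed a difference of at least 1.5-fold. Against the 0.30 of bright probes, those of Ttn and Neb included, 341 held, 54 moved and the same 1 reversed. With no background correction or an offset of 16 no member moved by more, and with the blank mean subtracted 3 did, with 5 members at least 1.5-fold higher. Subtraction of the local background column gave 10 members at least 1.5-fold higher and 10 lower, 6 and 9 at 2-fold, a fast median of -0.36, a slow median of -0.021, 4 of 8 pairs with the slow ratio above, and Myoz2 at -7.60. Local background was 115% of the spot for Tnnt1 on the control array and 104% for Myoz2 on the depleted array, so after subtraction these spots sit at the floor and their ratios have no size. Scaling to the median gave 9 members at least 1.5-fold higher and 0 lower, 3 at 2-fold higher, a slow median of 0.76 and a slow minus fast difference of 0.77. It also put the 1000 brightest genes at 0.29. Cyclic loess gave 4 members at least 1.5-fold lower, a fast median of -0.46 and a difference of 0.87, and the authors' processed values a fast median of -0.33 and a difference of 0.79. The mean and the dimmest of a gene's probes each gave 2 members at least 1.5-fold lower, Ttn being the one added. Filters on dim genes removed no member. The cause was not tested for the other changes. Signal over background limits Myoz3, Pdlim3, Pdlim5, Myom3 and Tnnt2.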

Other observations

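Genes that assemble or turn over the sarcomere, from a list of 16 of which 15 were measured, had a median of -0.20, with 6 higher and 9 lower. Trim63, a ubiquitin ligase of the M-band, was at 2.71. Smyd1, a methyltransferase needed to assemble thick filaments, went from a spot of 1450 to 1086 (-0.89), and Mef2c, a factor that binds the MEF2 site, from 1032 to 759 (-0.88). These genes lay on either side of 0, as the members did.

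Troponin genes lie in clusters. In RefSeq (GRCm38.p6), Tnni1 and Tnnt2 are parted by 1 coding gene on chromosome 1, and Tnni2 and Tnnt3 by 1 coding gene on chromosome 7. The ratios within the former cluster differed (0.58 and 0.01), while those of the fast cluster were alike (0.10 and 0.04).

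The positive control probes, whose target is not given in the sources used here, were brighter on the depleted array. On the scale of the deposited values their median log2 ratios over 24 spots were 0.68 and 0.34, beside 0.00 for the 1000 brightest genes. On that scale Tnnt1, Tnnc1 and Myoz2 were at 0.75, 0.72 and 0.80.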
